A study of Mus musculus with 24 samples.

Results

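To describe the state that depends on DRD5 under the same exposure to dopamine (DA), 3 libraries of DA-treated M1 wild-type (WT) bone marrow-derived macrophages (BMDMs) were compared with 3 libraries of DA-treated M1 DRD5-/- BMDMs. These 6 libraries are taken from 24 in all and were chosen by their labelled genotype, stimulus and treatment. BMDMs are macrophages grown in culture from bone marrow, here from C57BL/6 mice aged 10 weeks. The M1 state was induced with LPS at 100 ng/ml together with IFN-γ at 50 ng/ml over 12 h, and DA was present in all 6 cultures compared. Untreated M1 WT and untreated M1 DRD5-/- BMDMs, with 3 libraries each and the same stimulus, served as the background without DA. M2 BMDMs of both genotypes, stimulated with IL-4 and IL-13 at 10 ng/ml each for 12 h with DA, served as the other stimulus. The DRD5-/- mice were made with CRISPR-Cas9 and lack the receptor in the whole animal, not in macrophages alone. Nothing states whether the libraries of a group came from separate mice or cultures, and the p-values then measure only the spread between these samples, which may be technical.

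DRD5 is a dopamine receptor of the D1-like class. It couples to the stimulatory G protein Gs, which activates adenylyl cyclase, raises cyclic AMP (cAMP) and switches on protein kinase A, whose targets include the transcription factor CREB. Macrophages exposed to LPS and IFN-γ make nitric oxide, interleukin 12, TNF and interleukin 6 through NF-κB and IRF transcription factors, and cAMP is known as a brake on part of this program. Separate stress programs act in the same cells: HSF1 drives the heat shock chaperones, and Nrf2 drives genes for antioxidant defence and heme breakdown.

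The DNA before the starts of 3 heat shock genes is shown because these were the chaperone genes furthest below DRD5-/- levels in DA-treated WT. The sequences are the 250 bases before the start site from RefSeq on GRCm38.p6, written 5′ to 3′ along the gene. Capitals mark the letters GAANNTTC, a short form of the heat shock element that HSF1 binds. Hspa1a (chr17:34972157-34972406, minus strand) and Hspa1b (chr17:34959239-34959488, minus strand) encode inducible HSP70 proteins, and Hspb1 (chr5:135887669-135887918, plus strand) encodes a small heat shock protein.
Hspa1a: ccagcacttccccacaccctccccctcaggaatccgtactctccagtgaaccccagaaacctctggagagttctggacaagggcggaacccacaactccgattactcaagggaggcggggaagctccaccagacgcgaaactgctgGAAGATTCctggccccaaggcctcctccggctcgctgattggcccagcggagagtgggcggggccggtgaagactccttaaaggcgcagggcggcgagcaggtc
Hspa1b: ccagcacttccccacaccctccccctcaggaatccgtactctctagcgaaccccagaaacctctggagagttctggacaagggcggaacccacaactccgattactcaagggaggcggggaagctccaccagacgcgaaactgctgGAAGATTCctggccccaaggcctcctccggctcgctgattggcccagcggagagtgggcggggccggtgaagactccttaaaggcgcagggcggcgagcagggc
Hspb1: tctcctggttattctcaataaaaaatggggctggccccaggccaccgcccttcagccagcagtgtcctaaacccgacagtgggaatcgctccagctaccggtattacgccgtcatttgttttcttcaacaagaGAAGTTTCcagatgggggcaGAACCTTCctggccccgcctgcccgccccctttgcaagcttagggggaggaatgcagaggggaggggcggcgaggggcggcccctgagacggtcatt
The Hspa1a and Hspa1b sequences differed at 3 of 250 bases. Each held GAANNTTC once, and Hspb1 held it at 2 places.

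The 12 M1 libraries listed 18063 genes each. Their FPKM (fragments scaled by transcript length and by the mapped fragments of the library) summed to between 476187 and 494459, and 9774 to 9879 genes reached an FPKM of 1. The files hold no read counts, so the depth is unknown. The low values placed the 12 libraries between 0.979 and 1.019 of a common depth. The 10 most expressed genes took 15.5% to 17.7% of a library's sum, with the 3 highest shares in DA-treated WT. Libraries of the same group correlated across genes with Pearson's r of 0.997 to 0.998, and genes are not independent replicates. Macrophage markers were high in all cultures: Adgre1, which encodes F4/80, averaged 558.0 FPKM in DA-treated WT and 566.7 FPKM in DA-treated DRD5-/- BMDMs. Of 12 macrophage markers, Csf1r and Itgam were past the threshold given below, both higher in WT, and the median log2 difference of the 12 was 0.08. These were 16.7% of the list, against 18.5% of all tested genes, and the call of Itgam was lost with quantile normalization. In such bulk libraries, fewer cells of a type and less RNA per cell cannot be told apart. The markers of lymphocytes, mast cells and erythroid cells did not reach the expression filter, and of the 4 tested osteoclast markers 0 were past the threshold in limma, with 1 at an unadjusted p under 0.05. The erythroid markers summed to 1.24 to 3.56 FPKM in DA-treated WT and to 0 to 1.6 FPKM in DA-treated DRD5-/- libraries. Without DA these sums were 1.25 to 2.59 FPKM in WT and 0.04 to 0.37 FPKM in DRD5-/- libraries. The defining check of the genotype could not be made, because no M1 values of Drd5 were available here, and none of Drd2 either. Drd1 reached 0.03 FPKM and Drd4 reached 0.04 FPKM in their highest M1 library, and Drd3 was listed at 0 in all 12.

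In the presence of DA, the 2 genotypes differed at a large part of the expressed genes, mostly by small amounts. Each log2 difference given here is that of log2(FPKM + 1), WT minus DRD5-/-, fitted with limma over the 10040 genes that reached 1 FPKM in 3 or more of the M1 libraries. A gene was past the threshold at a Benjamini-Hochberg adjusted p under 0.001 and a difference of at least 1.2-fold. This held for 1861 genes, 18.5% of those tested. Of these, 597 (5.95% of the tested genes) were higher and 1264 (12.6%) were lower in DA-treated WT. The median size of the called differences was 0.39 on the log2 scale, and 60 genes differed by 2-fold or more, 39 higher and 21 lower in WT. The direction of the calls depended on scaling: 32.1% were higher in WT with the FPKM as deposited, 52.3% of 1665 calls with median-of-ratios scaling and 49.8% of 1666 calls with quantile normalization. With median-of-ratios scaling 870 tested genes were higher and 795 lower in WT, and with quantile normalization 830 and 836. The counts of each gene list below are to be read beside these shares of all tested genes. The median difference of all tested genes was −0.06 as deposited, and 1372 genes were called under all 3 scalings, 594 of them higher and 778 lower in WT. Each of the 1861 called genes had WT and DRD5-/- libraries that did not overlap, as did 56.2% of all tested genes.

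Without DA, the same genotypes differed at 94 genes, 0.936% of those tested, in libraries that the DA comparison does not use. Of these, 79 were also past the threshold with DA, all with the same sign (14 higher and 65 lower in WT). They made up 84.0% of the calls without DA and 4.25% of the calls with DA. To test whether the genotype difference itself changed with DA, the difference without DA was subtracted from the difference with DA in the same fit. This difference of differences was past the threshold for 841 genes (8.38%), 321 with a higher value (3.2%) and 520 with a lower value in WT (5.18%). Of these calls 38.2% were higher as deposited, 63.5% with median-of-ratios scaling and 56.5% with quantile normalization. The comparison with DA and the difference of differences share the 6 DA-treated libraries. At 3894 tested genes (38.8%), all 3 DA-treated WT libraries lay outside the range of the other 9 M1 libraries. This was so for 1720 of the 1861 called genes, 92.4%, a share that the choice of called genes partly fixes.

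**Figure D1:**
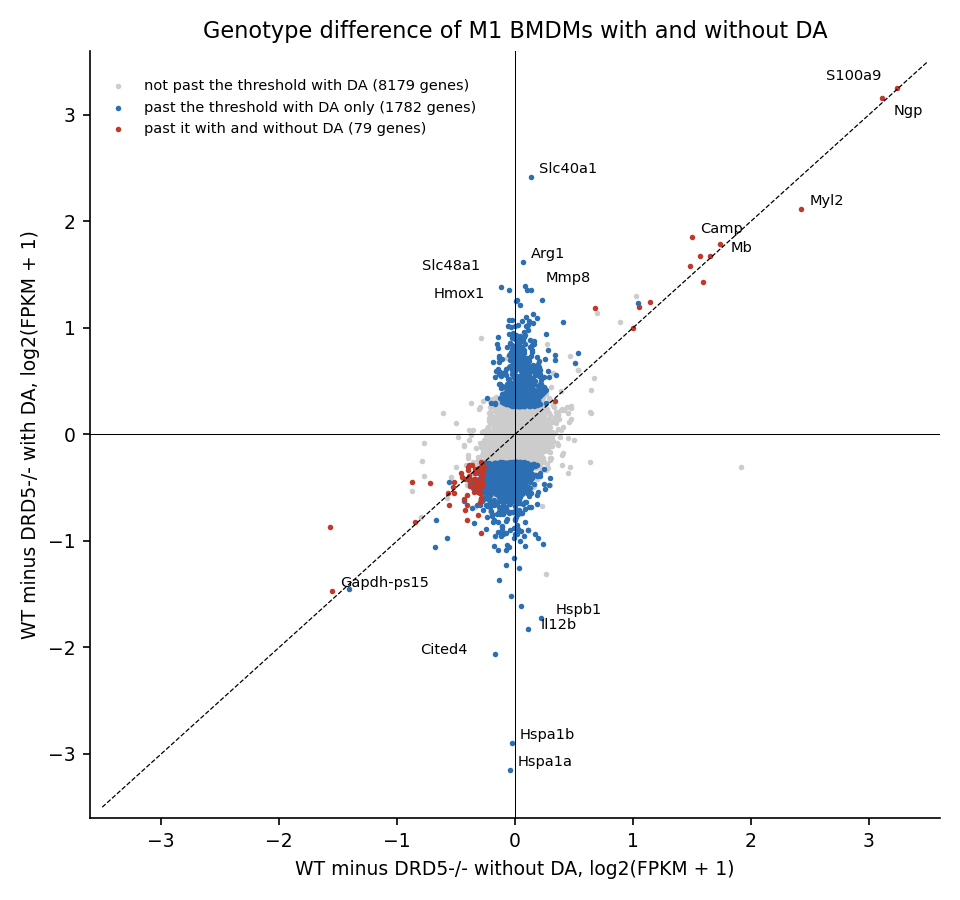
Each point is a tested gene. The horizontal axis is the genotype difference without DA and the vertical axis the difference with DA, both WT minus DRD5-/- in log2(FPKM + 1). Of the 1861 genes past the threshold with DA, 79 were past it without DA too and have the same sign on both axes.

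The heat shock chaperones were lower in DA-treated WT as a group. Of 42 tested genes of the list, 25 were past the threshold and lower in WT, against 12.6% of all tested genes, and 1 (Dnajb4) was higher. Their median difference was −0.35 on the log2 scale, against −0.06 over all tested genes. Without DA, 0 of the 42 were past the threshold in limma, 14 had an unadjusted p under 0.05, 11 of them higher in WT, and the median was 0.04. The difference of differences was past it for 23 genes, all lower. With the other scalings, 22 to 23 genes of the list were lower past the threshold. Hspa1a, on chromosome 17 from 34969359 to 34972156 (GRCm38.p6), was at 9.77, 9.96 and 9.91 FPKM in DA-treated WT and at 96.34, 92.48 and 98.15 FPKM in DA-treated DRD5-/- BMDMs. The untreated libraries of both genotypes held between 86.36 and 96.04 FPKM. All 3 DA-treated WT libraries were thus far under each of the other 9, and the mean FPKM was 9.68 times as high in DA-treated DRD5-/- as in DA-treated WT. The log2 difference was −3.15 (SE 0.036, adjusted p = 6.63e-17), against −0.04 without DA, and the difference of differences was −3.11 (adjusted p = 1.13e-14).

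Hspa1b was at 7.17, 7.65 and 7.9 FPKM in DA-treated WT and at 65.14, 62.66 and 61.21 FPKM in DA-treated DRD5-/- BMDMs, with no overlap. Its log2 difference was −2.90 (SE 0.036). Hspa1a and Hspa1b are near-identical paralogs, so the mapping may have divided reads between them, and their values are not independent of each other. Hspb1 was at 0.43, 0.16 and 0.69 FPKM in WT and at 3.87, 3.35 and 3.8 FPKM in DRD5-/- BMDMs with DA. Its groups did not overlap, and the log2 difference was −1.73 (SE 0.119). The constitutive chaperone Hspa8, the most abundant of those named here, averaged 1331 ± 21.05 FPKM in WT and 1968 ± 30.21 FPKM in DRD5-/- BMDMs (SD, n = 3), a log2 difference of −0.56. The mitochondrial chaperonin genes Hspd1 (−0.70) and Hspe1 (−0.81), the HSP110 gene Hsph1 (−0.90) and the co-chaperone gene Dnaja1 (−0.71) were past the threshold in the same direction. Hsf1, the gene of the transcription factor, averaged 4.16 ± 0.283 FPKM in WT and 6.88 ± 0.464 FPKM in DRD5-/- BMDMs (SD, n = 3), a log2 difference of −0.61.

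RefSeq promoters were given for 20 of the 25 chaperone genes that were lower in WT. The full heat shock element, GAANNTTC followed by NNGAA, was found on either strand in the 250 bases before the start of 3 of them (Dnajb6, Hspd1 and Hspe1). The short form GAANNTTC, which the full form contains, was found in 9, including the genes printed above, and the short form TTCNNGAA in 4. By promoter, since a gene can have several, 14.3% of the 28 promoters of these genes held the full form and 35.7% held GAANNTTC. Among the 10383 promoters of tested genes, these shares were 0.356% and 5.0%. The list was chosen for heat shock genes, so a higher share partly follows from that choice. Chaperone genes that were not lower in WT were not counted apart. The hits may not be separate, since Hspa1a and Hspa1b are near-identical here and Hspd1 and Hspe1 held the same kinds of match. The cAMP response element TGACGTCA was in 0 of the 20 genes' promoters and in 2.64% of the promoters of tested genes. Its shorter site TGACGNNA was in 6 of the 20 genes, 21.4% of their promoters, against 9.74% of the promoters of tested genes. A match describes these letters and is no evidence that a factor was bound.

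**Figure D2:**
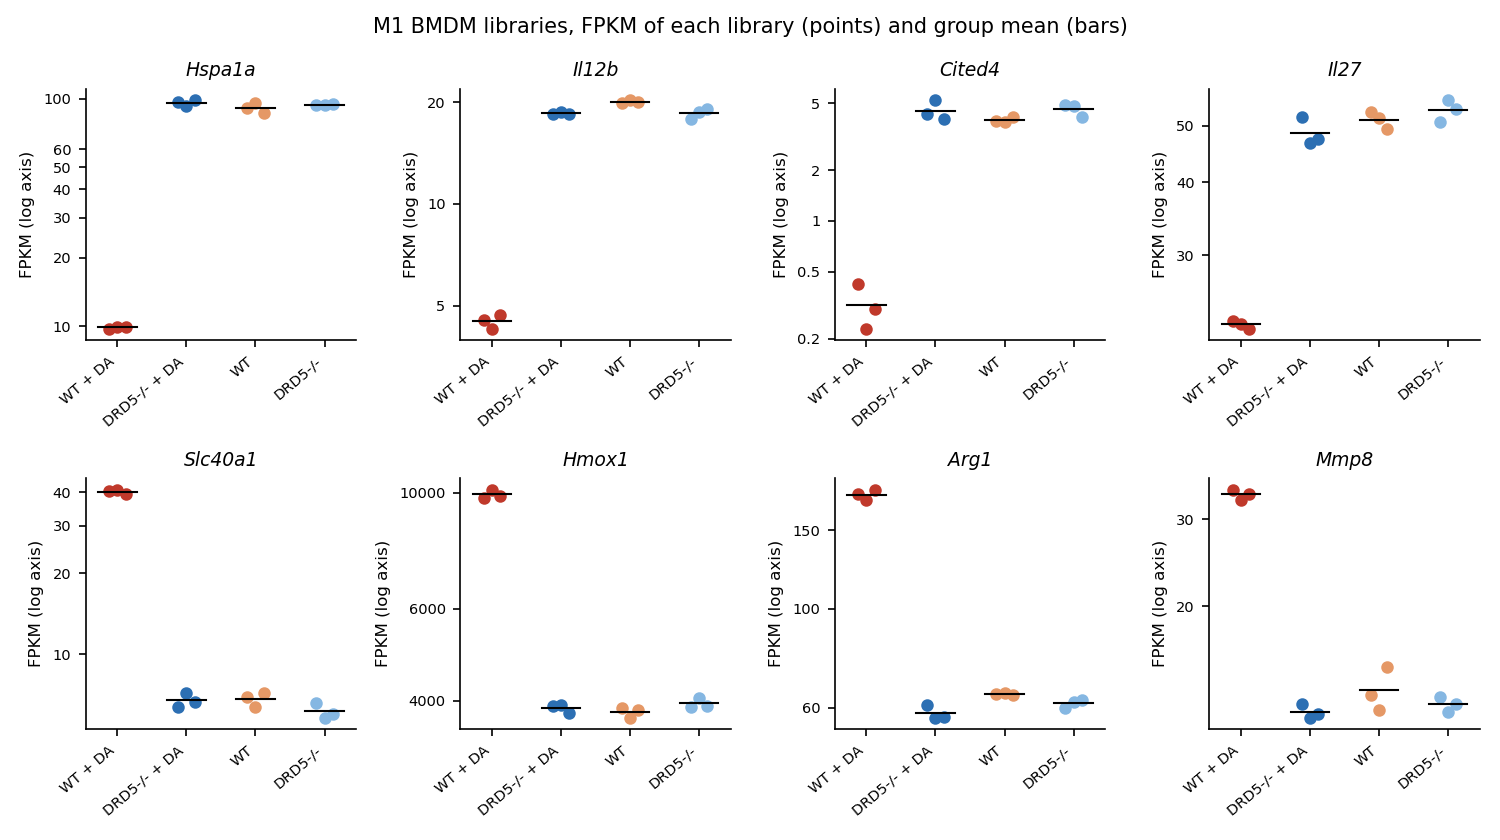
FPKM of 8 genes on a logarithmic axis in the 3 libraries of each M1 group, with a point for each library. In each panel the DA-treated WT libraries stand apart from the other 3 groups, lower for Hspa1a, Il12b, Cited4 and Il27 and higher for Slc40a1, Hmox1, Arg1 and Mmp8.

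Among the M1 cytokines and effectors, Il12b, Il27 and Ebi3 of the IL-12 family were lower in DA-treated WT, while Tnf was higher. Il12a and Il23a, of the same family, reached 0.32 and 0.28 FPKM in their highest M1 library and were not tested. Of 26 tested genes of the list, 8 were lower and 3 were higher past the threshold, against 7 lower and 5 higher with either other scaling. Over all tested genes, 12.6% were lower and 5.95% were higher as deposited. The median of the list was −0.02 as deposited and 0.05 with median-of-ratios scaling, so the sign of the list's median turned with the scaling. Il12b encodes the p40 subunit of interleukins 12 and 23 and lies on chromosome 11 from 44400063 to 44414677. It was at 4.55, 4.28 and 4.69 FPKM in DA-treated WT and at 18.44, 18.7 and 18.45 FPKM in DA-treated DRD5-/- BMDMs. The 6 untreated libraries lay between 17.86 and 20.25 FPKM, so DA-treated WT alone was low. The log2 difference was −1.83 (SE 0.039, adjusted p = 8.39e-14), and the difference of differences was −1.94. Il27, which encodes the p28 subunit of interleukin 27, was at 23.14, 22.88 and 22.46 FPKM in WT and at 51.78, 46.71 and 47.47 FPKM in DRD5-/- BMDMs with DA. The groups did not overlap, and the log2 difference was −1.06 (SE 0.042). Ebi3, the partner subunit of interleukin 27, had a log2 difference of −0.66, with 119.5 ± 3.63 FPKM in WT and 189.3 ± 5.51 FPKM in DRD5-/- BMDMs (SD, n = 3).

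Il6 was at 13.61, 13.06 and 11.52 FPKM in WT and at 20.55, 17.09 and 16.5 FPKM in DRD5-/- BMDMs with DA. The groups did not overlap, and the log2 difference was −0.47 (SE 0.071, adjusted p = 6.6e-05). Tnf was at 144.4, 146.4 and 143.2 FPKM in WT and at 110.3, 102.5 and 100.3 FPKM in DRD5-/- BMDMs. It was higher in each WT library than in each DRD5-/- library, with a log2 difference of 0.47 (SE 0.032, adjusted p = 2.6e-08). Nos2, which encodes inducible nitric oxide synthase, was at 1669, 1712 and 1744 FPKM in WT and at 1938, 1955 and 1939 FPKM in DRD5-/- BMDMs. Each WT library was lower than each DRD5-/- library, but the log2 difference of −0.19 (adjusted p = 1.76e-05) was under 1.2-fold and not past the threshold. Edn1 (−0.89), which encodes endothelin 1, was lower past the threshold, and Inhba (0.40), which encodes the activin A subunit, was higher.

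Chemokine genes went in both directions. Of 27 tested genes, 5 were higher and 5 were lower in WT, with a median difference of 0.11, and 8 were higher and 4 were lower with median-of-ratios scaling. Among all tested genes 5.95% were higher and 12.6% were lower as deposited. The neutrophil-attracting chemokines Cxcl3 and Cxcl2 were higher: Cxcl3 averaged 50.4 ± 1.29 FPKM in WT and 25.4 ± 0.777 FPKM in DRD5-/- BMDMs (SD, n = 3), a log2 difference of 0.96, and that of Cxcl2 was 0.63. The receptor gene C5ar1, for complement C5a, was higher by 0.74. The T cell-attracting chemokines Ccl22 and Ccl5 were lower in WT, with log2 differences of −0.72 and −0.59. Ccl5 was among the most abundant transcripts and averaged 3882 FPKM in WT and 5843 FPKM in DRD5-/- BMDMs. Of 19 costimulatory and checkpoint genes, 3 were higher and 4 were lower, with a median of −0.14, against 4 higher and 3 lower with median-of-ratios scaling. As deposited these were 36.8% of the list, against 18.5% of all tested genes. Cd83, a marker of mature dendritic cells and activated macrophages, was at 16.78, 17.43 and 15.09 FPKM in WT and at 33.77, 34.92 and 32.7 FPKM in DRD5-/- BMDMs, with no overlap between the groups and a log2 difference of −0.999 (SE 0.0495). Tnfsf4, which encodes OX40 ligand, was higher in WT by 1.03 and Havcr2, which encodes TIM-3, by 0.74. Cd86 averaged 83.4 ± 0.746 FPKM in WT and 95.06 ± 0.961 FPKM in DRD5-/- BMDMs (SD, n = 3), and its log2 difference of −0.19 was not past the threshold. Without DA the log2 difference of Cd86 was 0.13, also not past it, but the difference of differences of −0.32 was past the threshold. The 2 tested dendritic cell markers were lower in WT, with log2 differences of −0.92 for Ccr7 and −0.45 for Xcr1, and the call of Xcr1 was lost with both other scalings.

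In the NF-κB list of subunits, kinases and inhibitors, 10 of 35 tested genes were lower and 1 was higher in WT, with a median of −0.10. With median-of-ratios scaling or quantile normalization, 4 were lower and 2 were higher. Over all tested genes 12.6% were lower and 5.95% higher as deposited. Of the 10040 tested genes, 795 were lower with median-of-ratios scaling and 836 with quantile normalization. The lower genes included Bcl3 (log2 difference −0.64), a nuclear IκB family member, Nfkbib (−0.47), which encodes IκBβ, Nfkb2 (−0.30) and Nfkb1 (−0.27). Bcl3 was also lower in untreated WT (−0.30). Ikbkg, the gene of the kinase scaffold NEMO, was higher by 0.54, with 11.2 ± 0.146 FPKM in WT and 7.36 ± 0.215 FPKM in DRD5-/- BMDMs (SD, n = 3). Of 16 Toll-like receptor and co-receptor genes, 5 were higher and 2 were lower. Tlr13, a sensor of bacterial ribosomal RNA, was higher by 0.68, the LPS receptor gene Tlr4 was higher by 0.46, and Tlr9, a sensor of CpG DNA, had a log2 difference of −0.47. Of 17 inflammasome and pyroptosis genes, Il1rn alone was past the threshold as deposited, while 2 genes were higher and 1 was lower with either other scaling. Il1rn encodes an antagonist of interleukin 1 and averaged 1291 FPKM in WT and 1752 FPKM in DRD5-/- BMDMs (log2 difference −0.44). Of 51 interferon genes, 8 were higher and 9 were lower, against 14 higher and 7 lower with median-of-ratios scaling. The guanylate-binding proteins Gbp4 (0.62) and Gbp6 (0.42) were among the former, and the signalling inhibitors Socs3 (−0.69) and Socs1 (−0.52) were among the latter. Of 29 MHC and antigen presentation genes, 2 were higher (Ctss and Pdia3) and 1 was lower (Ifi30), against 4 higher and 1 lower with either other scaling. As deposited, 43.8% of the Toll-like receptor list and 33.3% of the interferon list were past the threshold, against 18.5% of all tested genes. The inflammasome list (5.9%) and the MHC list (10.3%) were under that share.

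Of 21 tested genes for Gs, adenylyl cyclase, protein kinase A and phosphodiesterases, 6 were lower and 0 were higher in WT in limma, with a median of −0.11. At an unadjusted p under 0.05, 11 were lower and 2 were higher. The 6 genes were 4 phosphodiesterase genes, which break down cyclic nucleotides (Pde2a, Pde4b, Pde3b and Pde4a, with log2 differences from −0.49 to −0.32), and Arrb2 (−0.49) and Grk2 (−0.39), which act in receptor desensitization. Arrb2 was also past the threshold without DA (−0.28). Of 23 CREB family and cAMP-induced genes, 9 were lower and 2 (Klf4 and Il10) were higher, with a median of −0.19. The lower genes included Per1 (−0.80), Odc1 (−0.71) and Junb (−0.67). Nr4a3, an orphan nuclear receptor gene, was at 1.59, 1.44 and 1.59 FPKM in WT and at 3.13, 4.07 and 3.33 FPKM in DRD5-/- BMDMs, with no overlap and a log2 difference of −0.82 (SE 0.096). Creb1 itself averaged 5.6 ± 0.17 FPKM in WT and 5.64 ± 0.482 FPKM in DRD5-/- BMDMs (SD, n = 3), a log2 difference of −0.01. Of 14 genes for subunits of the phosphatase PP2A, 1 (Ppp2r1a, −0.29) was past the threshold, and it was under 1.2-fold with both other scalings. As deposited, 28.6% of the Gs and protein kinase A list, 47.8% of the CREB list and 7.1% of the PP2A list were past it. Over all tested genes this share was 18.5%, with 12.6% lower and 5.95% higher. Of the list of dopamine receptors, transport and breakdown, 2 genes were tested and 0 were past it in limma, with 1 at an unadjusted p under 0.05.

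Genes of iron export and heme breakdown were among the largest differences in the other direction that changed with DA. The 12 largest rises with DA also held granulocyte, heart muscle and airway genes whose differences were about as large without DA. Examples, with and without DA, were S100a9 (3.249 and 3.236), Ngp (3.155 and 3.107) and Myl2 (2.116 and 2.423), which are described below. Slc40a1, on chromosome 1 from 45908070 to 45926532, encodes ferroportin, the iron exporter of the cell. It was at 40.51, 40.86 and 39.22 FPKM in DA-treated WT and at 6.39, 7.18 and 6.67 FPKM in DA-treated DRD5-/- BMDMs. The 6 untreated libraries lay between 5.82 and 7.19 FPKM, so DA-treated WT alone was high. The log2 difference was 2.41 (SE 0.055, adjusted p = 1.68e-13), and the mean FPKM was 5.96 times as high in WT. Hmox1, which encodes heme oxygenase 1, was at 9780, 10130 and 9849 FPKM in WT and at 3904, 3921 and 3793 FPKM in DRD5-/- BMDMs. Its groups did not overlap, and the log2 difference was 1.36 (SE 0.028). Slc48a1, which encodes the heme transporter HRG1, was at 372.7, 378.8 and 381.3 FPKM in WT and at 144.2, 146.8 and 141.1 FPKM in DRD5-/- BMDMs (log2 difference 1.39, adjusted p = 3.37e-14). Spic, the gene of a transcription factor of iron-recycling macrophages, was higher by 0.94, and Bach1, which encodes a heme-regulated repressor of Hmox1, by 0.33. Of 28 tested heme and iron genes, 8 were higher, against 5.95% of all tested genes, and 3 were lower, with a median of 0.09. The ferritin genes Fth1 (0.04) and Ftl1 (0.24) were not past the threshold.

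Of 47 tested Nrf2 targets and glutathione genes, 21 were higher in DA-treated WT, against 5.95% of all tested genes. In the same list 1 gene (Chac1, which encodes an enzyme that breaks down glutathione) was lower. The call of Chac1 was lost with quantile normalization. The median difference was 0.22, and 19 genes were past the threshold of the difference of differences, all higher. Akr1b8, an aldo-keto reductase gene, was at 61.25, 60.31 and 60.15 FPKM in WT and at 23.8, 22.72 and 22.86 FPKM in DRD5-/- BMDMs. Its groups did not overlap, and the log2 difference was 1.35 (SE 0.055). Gclm, the regulatory subunit of glutathione synthesis, was higher by 0.81, the peroxiredoxin gene Prdx1 by 0.70, the catalase gene Cat by 0.75 and the cystine importer gene Slc7a11 by 0.60. RefSeq promoters were given for 17 of the 21 genes, and the antioxidant response element TGACNNNGC was found on either strand in 6 of them (Gclm, Ggct, Gsta3, Mgst1, Prdx1 and Txnrd1). By promoter this was 27.3% of 22, against 11.9% of the promoters of tested genes, and the choice of Nrf2 targets for the list partly fixes this share. The same letters were in 6 of the 20 chaperone genes that were lower in WT, 28.6% of their promoters.

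The list of alternative activation markers and scavenger receptors names 29 genes, of which 21 reached the filter. Alternative activation is the state associated with IL-4, but the list also holds scavenger receptors that are not specific to it. Of the 21 tested genes, 11 were higher in DA-treated WT, against 5.95% of all tested genes, 1 (Tgfb1) was lower and 9 were not past the threshold. Tgfb1 was also lower without DA (−0.34), and its difference of differences was −0.08. The median of the list was 0.41, the highest of the lists with at least 10 tested genes. Arg1, which encodes arginase 1, was at 180.8, 175.6 and 185.2 FPKM in WT and at 60.77, 56.92 and 57.09 FPKM in DRD5-/- BMDMs. The untreated libraries of both genotypes lay between 59.85 and 64.7 FPKM, and the log2 difference was 1.61 (SE 0.031, adjusted p = 3.37e-14). Mrc1, the mannose receptor gene, averaged 18.8 ± 0.382 FPKM in WT and 11.1 ± 0.539 FPKM in DRD5-/- BMDMs (SD, n = 3), a log2 difference of 0.71. The scavenger receptor gene Msr1 was higher by 0.69 and the beta-glucan receptor gene Clec7a by 0.63. Chil3 was higher by 0.66, but its difference without DA was 0.51 and the difference of differences was 0.16, not past the threshold. Il10 was higher by 0.32 and was under the threshold when any of the 6 DA-treated libraries was left out. Of 20 genes of arginine, nitric oxide and polyamine metabolism, Arg1 was the 1 higher gene and 5 were lower, led by Odc1 (−0.71), the gene of the first enzyme of polyamine synthesis.

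**Figure D3:**
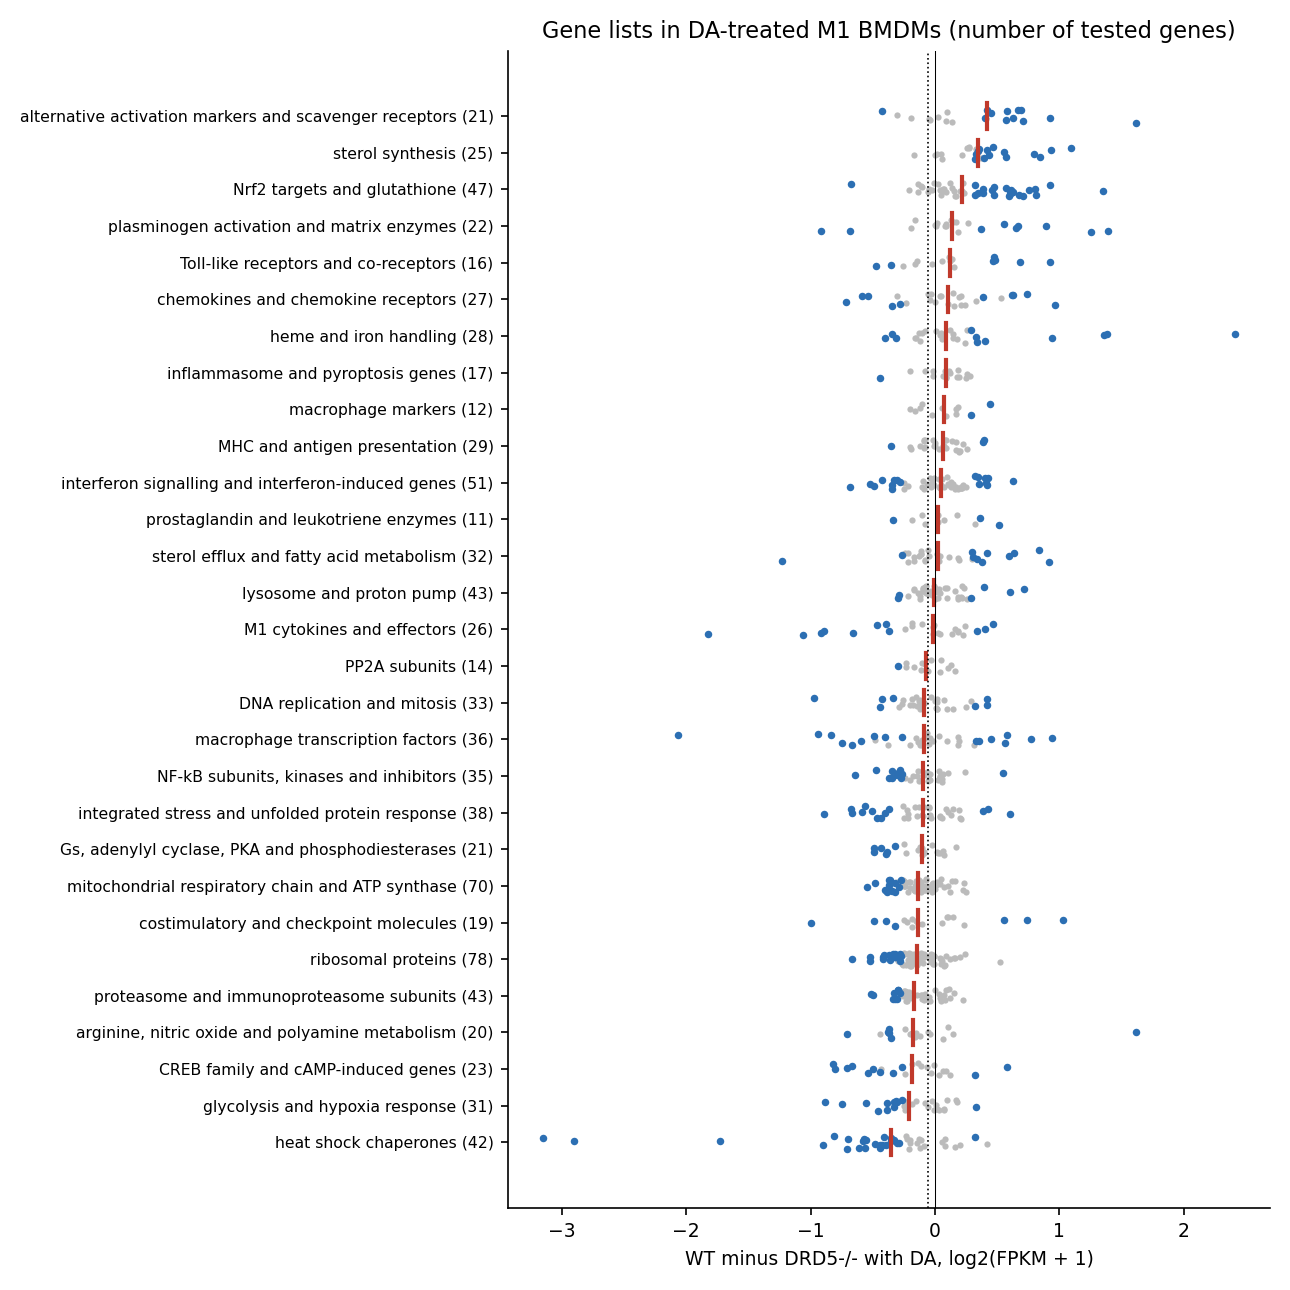
Genotype difference with DA (log2, WT minus DRD5-/-) of every tested gene in the 29 lists with at least 10 tested genes. Blue points were past the threshold, grey points were not, the red bar is the median of the list, and the dotted line is the median of all tested genes (−0.06). Heat shock chaperones have the lowest median (−0.35) and the list of alternative activation markers and scavenger receptors the highest (0.41).

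Of 25 tested sterol synthesis genes, 14 were higher in DA-treated WT, against 5.95% of all tested genes, and 0 were lower in limma. The median of the list was 0.34. At an unadjusted p under 0.05, 20 were higher and 1 was lower. The farnesyl diphosphate synthase gene Fdps was at 24.6, 25.83 and 25.14 FPKM in WT and at 11.5, 11.55 and 10.76 FPKM in DRD5-/- BMDMs, with no overlap and a log2 difference of 1.09 (SE 0.052). Cyp51, which encodes lanosterol demethylase, was higher by 0.93 and the sterol oxidase gene Msmo1 by 0.80. Of 32 genes of sterol efflux and fatty acid metabolism, 9 were higher and 2 were lower, 34.4% of the list against 18.5% of all tested genes. The fatty acid translocase gene Cd36 was higher by 0.92, the lipoprotein lipase gene Lpl by 0.91, and the lipid chaperone gene Fabp4 by 0.84. Ch25h, which encodes the cholesterol hydroxylase that makes 25-hydroxycholesterol, was at 51.36, 47.91 and 54.04 FPKM in WT and at 128.6, 118.3 and 116.6 FPKM in DRD5-/- BMDMs. Its groups did not overlap, and the log2 difference was −1.23 (SE 0.045).

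Of 22 tested genes of plasminogen activation and matrix enzymes, 7 were higher and 2 were lower, with a median of 0.14. These made up 40.9% of the list, against 18.5% of all tested genes. The collagenase gene Mmp8 was at 34.42, 32.85 and 33.81 FPKM in DA-treated WT and at 12.72, 11.92 and 12.14 FPKM in DA-treated DRD5-/- BMDMs, a log2 difference of 1.39 (SE 0.056). The 6 untreated libraries held between 12.23 and 15.09 FPKM. Plau, which encodes urokinase, averaged 22.2 ± 1.24 FPKM in WT and 8.73 ± 0.54 FPKM in DRD5-/- BMDMs (SD, n = 3), a log2 difference of 1.25. Serpinb2, which encodes plasminogen activator inhibitor 2, was higher by 0.89. Of 11 prostaglandin and leukotriene genes, Alox5ap (0.52) and Tbxas1 (0.36) were higher and Ptges3 (−0.34) was lower, 27.3% of the list against 18.5% of all tested genes.

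Of 36 macrophage transcription factors, 7 were higher and 9 were lower, 44.4% of the list against 18.5% of all tested genes. Cited4, which encodes a transcriptional coactivator, was at 0.42, 0.23 and 0.3 FPKM in DA-treated WT and at 4.33, 5.19 and 4.02 FPKM in DA-treated DRD5-/- BMDMs. The 6 untreated libraries lay between 3.88 and 4.86 FPKM, and the log2 difference was −2.06 (SE 0.083, adjusted p = 1.15e-10). The AP-1 family genes Batf (−0.94) and Fosl1 (−0.84) were lower, and Tfec (0.77) and Klf4 (0.58) were higher. Further genes with large differences that belong to no list were Enpp2 (log2 difference −1.61), which encodes autotaxin, Bcl2a1d (−1.52), an anti-apoptotic gene of the Bcl2 family, Arc (−1.36), a neuronal immediate early gene, and Ntng2 (−1.26), which encodes netrin G2. Enpp2 averaged 2.96 ± 0.0815 FPKM in WT and 11.1 ± 0.51 FPKM in DRD5-/- BMDMs (SD, n = 3). Bcl2a1d has close paralogs, and its WT libraries were uneven at 13.54, 11.44 and 18.9 FPKM. Of the 5 tested stromal and endothelial markers, Pecam1 was past the threshold (−1.04) and the other 4 were not.

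Of 38 integrated stress and unfolded protein response genes, 10 were lower and 3 were higher, against 8 lower and 5 higher with median-of-ratios scaling. Psat1, an enzyme of serine synthesis, averaged 31.9 ± 0.765 FPKM in WT and 59.99 ± 0.757 FPKM in DRD5-/- BMDMs (SD, n = 3), a log2 difference of −0.89, and Sesn2 had one of −0.67. Of 31 glycolysis and hypoxia genes, 11 were lower and 1 (Pgk1) was higher, with a median of −0.21, and 7 were lower with median-of-ratios scaling. The lactate carrier gene Slc16a1 (−0.88), the vasodilator gene Adm (−0.75) and Hif1a (−0.55) were among the lower genes. Of 43 proteasome genes, 9 were lower (median −0.17), against 4 lower and 1 higher with median-of-ratios scaling. Of 70 respiratory chain genes, 14 were lower (median −0.13), against 9 lower with either other scaling. Of 78 ribosomal protein genes, 17 were lower (median −0.15), against 9 and 15 lower with the other scalings. In these 3 lists 0 genes were higher in limma, while 6, 4 and 5 genes were higher at an unadjusted p under 0.05. Many ribosomal protein genes have processed pseudogenes that can share their reads. Of 43 lysosome and proton pump genes, 4 were higher and 2 were lower, with a median of −0.004. With median-of-ratios scaling 8 were higher and 0 were lower, with a median of 0.06, and with quantile normalization 6 were higher and 1 was lower. Of 33 DNA replication and mitosis genes, 3 were higher and 4 were lower, among them Pcna (0.41) and the cyclin gene Ccnd2 (−0.97).

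The genes that differed between the genotypes in M1 with and without DA included markers of cell types other than macrophages. Of 9 neutrophil and granulocyte precursor markers, 5 reached the filter, and all 5 were higher in WT both with and without DA, with median differences of 1.85 and 1.65. Passing the filter rests on the WT libraries for all of these genes but S100a8, which was over 1 FPKM in every DRD5-/- library. The FPKM of the 9 summed to 63.84 to 83.24 in DA-treated WT, 17.37 to 20.06 in DA-treated DRD5-/-, 44.86 to 56.68 in untreated WT and 14.7 to 18.27 in untreated DRD5-/- libraries. S100a9, which encodes a subunit of calprotectin, was at 21.0, 14.16 and 9.65 FPKM in DA-treated WT and at 0.5, 0.71 and 0.61 FPKM in DA-treated DRD5-/- BMDMs. It was at 10.63, 13.77 and 16.41 FPKM in untreated WT and at 0.41, 0.81 and 0.4 FPKM in untreated DRD5-/- BMDMs. The log2 difference was 3.25 with and 3.24 without DA, and the difference of differences was 0.01. S100a8, the gene of the other calprotectin subunit, was at 42.63, 38.98 and 43.36 FPKM in DA-treated WT and at 17.89, 16.46 and 19.07 FPKM in DA-treated DRD5-/- BMDMs. Its log2 difference was 1.18 with and 0.68 without DA, and the difference of differences of 0.50 was not past the threshold (adjusted p = 0.0038). Ngp, a granule protein gene, was at 12.4, 7.46 and 6.05 FPKM in DA-treated WT and was listed at 0 in 2 of the 3 DA-treated DRD5-/- libraries. Camp was at 2.63 to 4.23 FPKM in DA-treated WT and at 0.09 to 0.26 FPKM in DA-treated DRD5-/- BMDMs. The genes of primary granules were at or near 0: Elane was listed at 0 in all 12 M1 libraries and Mpo reached 0.08 FPKM. Lcn2, a neutrophil gene that stimulated macrophages also express, lay between 175.5 and 208.9 FPKM in the 6 DA-treated libraries. In DA-treated M2 BMDMs, Ngp averaged 0 FPKM in WT and 0.013 FPKM in DRD5-/-, and Camp 0.117 and 0.207 FPKM. S100a8 averaged 1.04 FPKM in M2 WT and 0.093 FPKM in M2 DRD5-/- BMDMs with DA. These markers' part in the other differences was not tested. Mmp8, also a granulocyte gene, averaged 12.69 FPKM in untreated DRD5-/- BMDMs, where S100a9 averaged 0.54 FPKM. The log2 difference of Mmp8 was 0.09 without DA. Any part of granulocyte RNA in the Mmp8 values was not tested.

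Some genes of heart muscle and airway, singled out after their values were seen, were found in M1 with and without DA in the WT libraries alone. The cardiac myosin light chain gene Myl2 was at 4.77, 3.34 and 2.25 FPKM in DA-treated WT and at 3.0, 5.01 and 5.42 FPKM in untreated WT, and it was listed at 0 in all 6 DRD5-/- libraries. The myoglobin gene Mb was at 3.9, 2.29 and 1.54 FPKM in DA-treated WT and the club cell gene Scgb1a1 at 2.59, 1.29 and 1.39 FPKM, and both were listed at 0 in the DRD5-/- libraries. Myl3 (0.97 to 1.67 FPKM in DA-treated WT), Myh6 (0.6 to 0.92 FPKM) and Sftpc (0.43 to 0.54 FPKM) were also listed at 0 in all 6 DRD5-/- libraries. Some other genes of these tissues did not part the genotypes in this way. The cardiac troponin gene Tnni3 was at 3.53 to 4.43 FPKM in DA-treated WT and at 1.55 to 2.54 FPKM in DA-treated DRD5-/- BMDMs, the natriuretic peptide gene Nppa at 0.11 to 0.4 and 0.06 to 0.35 FPKM, and the surfactant gene Sftpb at 0.22 to 0.29 and 0.23 to 0.39 FPKM. In DA-treated M2 BMDMs, Myl2 averaged 0 FPKM in WT and 0.02 FPKM in DRD5-/-, and Mb was at 0 in both. Scgb1a1 averaged 0.297 FPKM in M2 WT and 0.383 FPKM in M2 DRD5-/- BMDMs with DA. The part of these heart muscle and airway genes in the other differences was not tested. Of genes lower in WT with and without DA, the annotated pseudogene Gapdh-ps15 was at 29.65, 39.19 and 35.74 FPKM in DA-treated WT and at 91.45, 94.97 and 108.6 FPKM in DA-treated DRD5-/- BMDMs, with log2 differences of −1.48 and −1.56 with and without DA. It can share reads with Gapdh, so its value is uncertain. Gm12657 and the histone gene Hist1h2ap were also past the threshold in both, with log2 differences of −0.83 and −0.87 with DA, and the call of Hist1h2ap with DA was lost with both other scalings. Gm4705 had a log2 difference of −1.46 with DA and of −1.40 without, and the latter was not past the threshold (adjusted p = 0.0044). For Fscn1, which encodes the actin bundling protein fascin, and the clock gene Per1, the difference was larger with DA (−0.93 and −0.80) than without (−0.29 and −0.41), and the difference of differences was past the threshold for both.

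**Figure D4:**
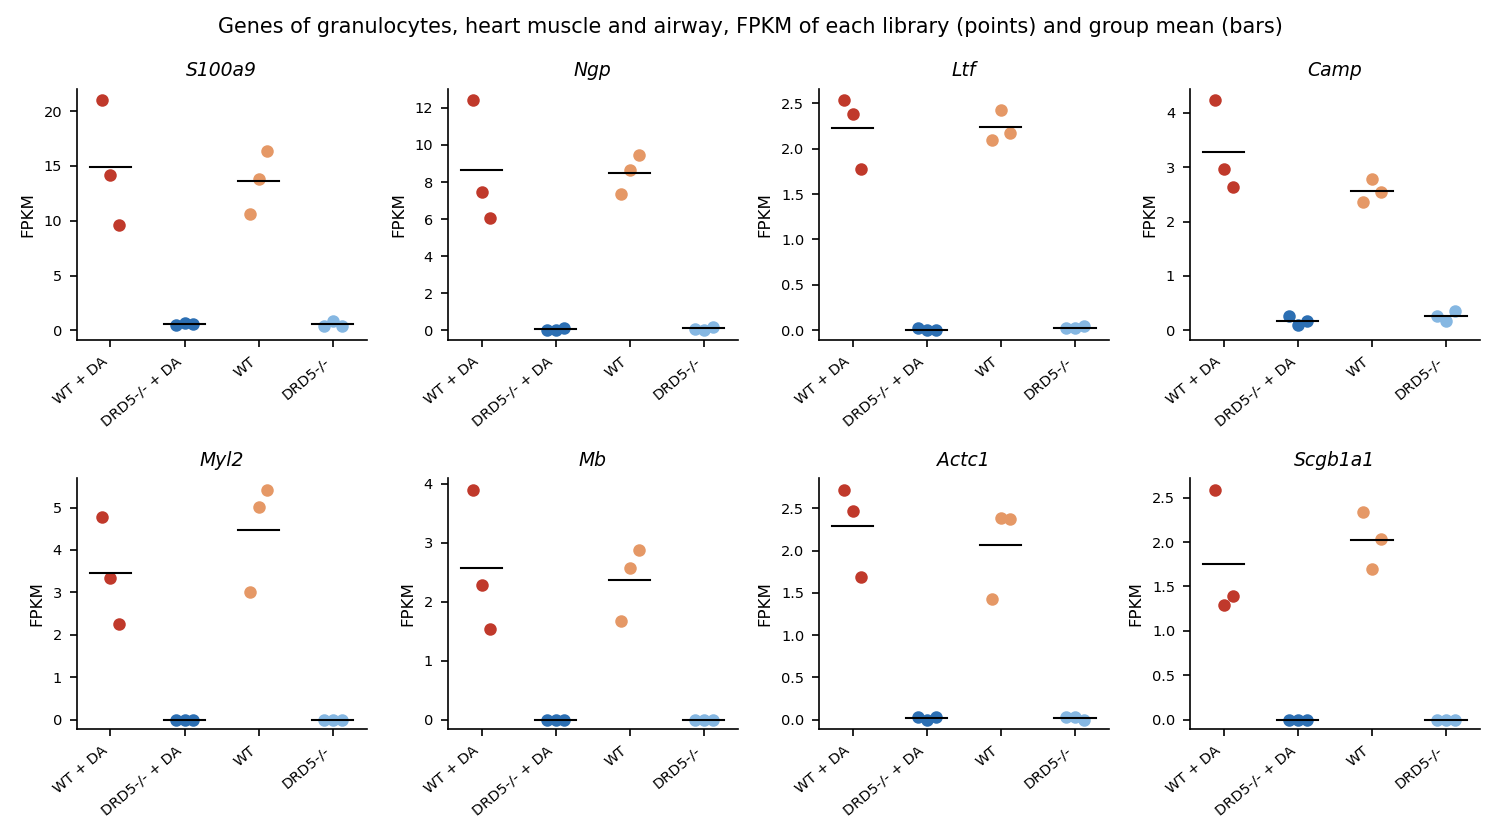
FPKM of 4 neutrophil genes (S100a9, Ngp, Ltf and Camp), 3 muscle genes (Myl2, Mb and Actc1) and the airway gene Scgb1a1 in each M1 library, with a point for each library. WT libraries are above DRD5-/- libraries in every panel, with and without DA.

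The genotype difference under DA was then set against that under the M2 stimulus, over the 10992 genes that passed the filter among the 12 DA-treated libraries. It differed between M1 and M2 past the threshold for 5159 genes, 46.9% of those tested, of which 36.8% had the higher value in M1 as deposited, 45.7% with median-of-ratios scaling and 50.5% with quantile normalization. The M1 and M2 libraries differ in stimulus, and the files of each stimulus list different sets of genes, 17109 of which are shared. Slc40a1 went in opposite directions: in M2 it averaged 7.38 FPKM in DA-treated WT and 13.3 FPKM in DA-treated DRD5-/- BMDMs, and the M1 minus M2 difference was 3.19. Slc6a12, which encodes a betaine and GABA transporter, averaged 6.25 and 4.68 FPKM in M1 and 4.83 and 56.3 FPKM in M2 (WT and DRD5-/- in turn), a difference of 3.66. Dio2, which encodes the enzyme that activates thyroid hormone, had a difference of 3.45. The inhibitor of differentiation gene Id1 averaged 1.26 and 2.14 FPKM in M1 and 45.9 and 2.09 FPKM in M2, a difference of −4.41. The platelet factor gene Pf4 (−3.94), the asparagine synthetase gene Asns (−3.69) and the amino acid transporter gene Slc7a8 (−3.47) were likewise far higher in M2 WT. For Slc7a8 the M1 values, 247.1 FPKM in WT and 257.2 FPKM in DRD5-/- BMDMs, were not past the threshold. The gene Rbp4, which encodes a retinol carrier, had a difference of 3.14 and the lectin gene Mgl2 one of −3.47, and neither reached the filter in M1.

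Among the genes with the largest M1 differences, Arg1 was higher in WT under both stimuli, by 1.61 on the log2 scale in M1 and by 3.84 in M2. Plau was higher by 1.25 in M1 and 3.24 in M2, and Mmp8 by 1.39 and 1.76. Hspa1a had log2 differences of −3.15 in M1 and −1.03 in M2, where it averaged 0.623 FPKM in WT and 2.3 FPKM in DRD5-/- BMDMs, levels at which the added 1 shrinks a difference. The chaperone list as a whole had a median of −0.35 in M1 and 0.34 in M2, and Hspd1 had differences of −0.70 in M1 and 1.17 in M2. Il12b was listed at 0 in the M2 DA-treated WT libraries and averaged 0.0067 FPKM in M2 DRD5-/- libraries.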

How the data were processed

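RNA was sequenced on a BGISEQ-500, and the authors mapped filtered reads with HISAT2 (the paper names GRCm38.p5, the submitters' processing notes GRCm38.p6 and Bowtie2 2.2.5). They deposited FPKM without counts, so their filtering and length correction lie behind each value and the depth is unknown. Groups came from the labels. The members and the 37 gene lists were chosen with earlier results of these data known. limma 3.58.1 (R 4.3.3) was fitted to log2(FPKM + 1) of the 12 M1 libraries, with a mean per group and an intensity trend, and to the 12 DA-treated libraries for the comparison of M1 with M2. The fit was tested on simulated data. Genes were named by rule: the 12 largest differences in each direction, up to 2 per list and direction, the 5 largest of each other comparison, and the dopamine receptors and 7 M1 and M2 genes. Other list members were named after their values were seen. Coordinates (99.7% of tested genes) and promoters were from RefSeq, GRCm38.p6. Alternatives were 2 other scalings, no expression filter, a pseudocount of 0.1, no trend, the compared groups alone, other thresholds, a replicate block and leaving out each library. Python 3.11.15 with pandas 2.3.3 was used for the rest. Results of some genes are not reported here.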

Additional observations from a re-analysis of the deposited data

Results flagged for a closer look

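The results given here had a genotype difference (log2, WT minus DRD5-/-) that changed with DA by limma's test of the difference of differences, which was past an adjusted p of 0.001 and 1.2-fold for 841 genes. The 5 largest values in the negative direction were −3.106 for Hspa1a, −2.871 for Hspa1b, −1.950 for Hspb1, −1.936 for Il12b and −1.892 for Cited4. In the positive direction they were 2.277 for Slc40a1, 1.548 for Arg1, 1.501 for Slc48a1, 1.410 for Hmox1 and 1.301 for Mmp8. In each of these 10 genes the 3 DA-treated WT libraries lay apart from the other 9 M1 libraries, as they did at 38.8% of all tested genes. The choice of these genes by the largest differences in the same libraries largely fixes this.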

How the results depend on the processing

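The 1861 genes called between the DA-treated genotypes became 60 at 2-fold. The 94 calls without DA became 43 without the expression filter, 36 without the intensity trend, 202 at an adjusted p of 0.05 and 13 at 2-fold. The 841 calls of the difference of differences became 1836 at an adjusted p of 0.05 and 41 at 2-fold, and the 5159 calls between M1 and M2 became 1115 at 2-fold. With 1 library left out, the counts ranged from 1541 to 1836 with DA, from 36 to 93 without DA, from 625 to 771 for the difference of differences and from 4820 to 5091 between M1 and M2. Those that moved the count without DA by over 1.5 times were untreated DRD5-/- libraries 2 (36 calls) and 3 (57) and untreated WT libraries 1 (61) and 3 (45). The cause of these changes was not tested.

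Same-numbered libraries of the DA-treated groups did not deviate together (residual r −0.083, −0.111 and 0.006), and 2 of 12 libraries were closest to a library of their own number, so the numbers were not taken as a pairing. A fit with the number as a replicate block called 1769 genes with DA, 74 without, 716 for the difference of differences and 5012 between M1 and M2.

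Of the 121 named genes, 2 changed direction, neither of them called. Acp5 turned to 0.032 with median-of-ratios scaling, 0.034 with quantile normalization and between −0.068 and 0.013 with 1 library left out, and Slc7a8 turned to 0.010 with median-of-ratios scaling. Calls were lost for 83 of the named genes at 2-fold, 6 with median-of-ratios scaling, 7 with quantile normalization, 7 without the filter, 5 without the trend, 3 with the compared groups alone, 1 with a pseudocount of 0.1 and 1 with the block. Leaving out 1 library lost the call in 40 of 1452 fits of a named gene, over 11 genes. The unknown depth limits what can be said of genes near 1 FPKM.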
